A study of Mus musculus with 2 samples.

Results

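Mir132 and Mir212 are a tandem pair of microRNA (miRNA) genes on mouse chromosome 11, known from neurons as targets of the transcription factor CREB. They were taken as the gene rows whose Ensembl identifiers belong to Mir132 (ENSMUSG00000065537.2) and Mir212 (ENSMUSG00000065590.1) in the GENCODE M21 annotation, 2 of 2202 miRNA genes in each table. Short RNA was sequenced from hippocampal tissue of B6CASTF1/J mice, all female and 25 days of age, a hybrid of the C57BL/6J and CAST/EiJ strains. The 2 libraries are biological replicates 1 and 2 of a single group, with no treatment given, so the levels describe untreated tissue and induction by activity was not measured. The labels give each library its own tissue sample and the same donor entry, and do not say whether the tissues came from different animals or which hippocampal layer was taken. Differences between the libraries therefore measure the spread between these samples, which may be technical.

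In neurons, synaptic activity and BDNF activate CREB, which drives a primary transcript that holds both hairpins. Each hairpin is cut to a duplex, and 1 arm guides the silencing complex to messenger RNAs through its seed, bases 2 to 8 from the 5′ end. In hippocampal neurons miR-132 is known to promote dendrite growth and spine maturation. miR-212 is the less studied partner with the same 3p seed.

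The mature arms are shown because the shared seed is what makes the pair 1 family (RefSeq, GRCm38.p6, seed in capitals).
miR-132-3p: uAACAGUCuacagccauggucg
miR-212-3p: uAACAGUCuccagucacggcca
miR-132-5p: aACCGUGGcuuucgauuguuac
miR-212-5p: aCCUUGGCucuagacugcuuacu
No other mature miRNA among the 1738 in the sequence table carried the 3p seed. The 3p arms were identical at 17 of 22 positions. Counted from the 5′ end, with the miR-132-3p base first, they differed by A10C, C14U, U17C, U20C and G22A, all outside the seed. The 5p arms had different seeds. Set 1 base apart, so that the second base of miR-132-5p met the first of miR-212-5p, they were identical at 14 of 21 positions.

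The hairpins show how far the sequences part outside the arms (both arms in capitals).
Mir132 hairpin: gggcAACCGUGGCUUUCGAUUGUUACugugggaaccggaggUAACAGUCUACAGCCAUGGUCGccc
Mir212 hairpin: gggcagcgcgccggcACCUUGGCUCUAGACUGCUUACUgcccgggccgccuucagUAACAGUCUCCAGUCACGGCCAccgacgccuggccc
The Mir132 hairpin has 66 bases with 57.6% G and C, and the Mir212 hairpin has 91 bases with 69.2%. CPM below are counts per 1000000 of the main-strand total over gene rows. Among the 218 miRNA genes with a mean level of 100 CPM or more, 214 had a lower G and C content than Mir212 and 167 a lower one than Mir132. The longest stretch that the hairpins share with each other is 10 bases, and neither shares 22 bases with any other miRNA gene. Of the 2202 genes, 1032 do share such a stretch with another locus. This matters because reads with more than 1 match are in no gene count.

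In mm10 both genes lie on the plus strand, Mir212 at chr11:75173388-75173478 and Mir132 at chr11:75173682-75173747, with 203 bases between them. Both are in intron 1 of the noncoding host gene 1700016P03Rik (chr11:75172560-75177633), whose 3 exons they do not touch. The protein-coding gene Hic1 lies upstream and Ovca2 downstream, both on the minus strand. No gene on the minus strand overlaps either hairpin, and neither library had a read on that strand at either of them.

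**Figure D1:**
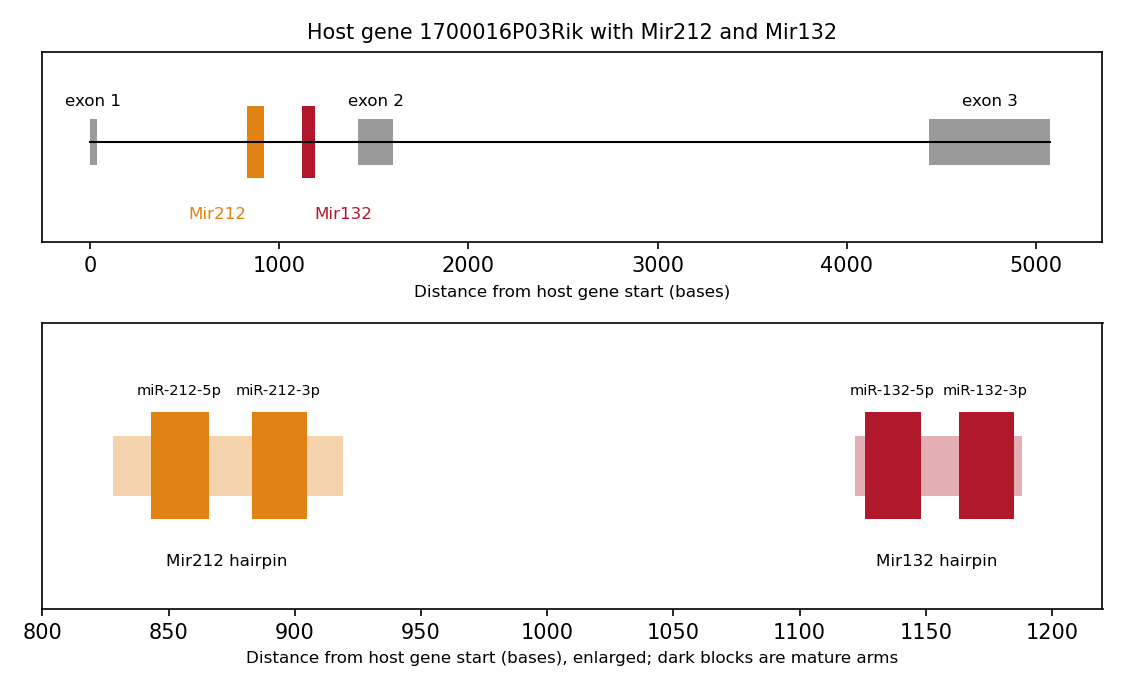
Map of the host gene 1700016P03Rik, drawn to scale as distance in bases from its annotated start; grey blocks are exons, coloured blocks the hairpins, and in the enlarged lower panel dark blocks are the mature arms. The Mir212 hairpin starts 828 bases and the Mir132 hairpin 1122 bases from the host start, both before exon 2 at 1418.

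The libraries held 5481053 and 4266963 counts in miRNA gene rows, and 41.9% and 46.4% of all their reads matched several places. Of the 15 neuron markers in the lists drawn up for tissue checks, 12 reached 2 CPM in both libraries, beside 433 of all 2202 genes. The other 3, Mir124a-2, Mir124a-3 and Mir9-2, each share 22 bases with other loci. No marker of any list was at 0 in either library, while 1551 of the 2202 genes were at 0 in at least 1 library. This held for the lists of all cell types alike, so it does not tell tissues apart.

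Mir132 was the far more abundant gene of the pair in both libraries. Mir132 had 93957 counts in replicate 1, or 17142 CPM, and 17230 counts in replicate 2, or 4038 CPM. Mir212 had 2956 counts, or 539 CPM, in replicate 1 and 598 counts, or 140.1 CPM, in replicate 2. Both genes were thus high in replicate 1 and low in replicate 2, and the lower Mir132 value still exceeded the higher Mir212 value.

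As a share of all gene counts, Mir132 held 1.71% in replicate 1 (1.70 to 1.73, exact Clopper-Pearson 95% interval), against 0.404% (0.398 to 0.410) in replicate 2. Mir212 held 0.0539% (0.0520 to 0.0559) and 0.0140% (0.0129 to 0.0152). These intervals cover counting error only, since PCR copies are not independent molecules. Over the libraries Mir132 was at 10590.1 ± 9266 CPM (SD, n = 2) and Mir212 at 340 ± 282, so that each SD was nearly as large as its mean.

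By level, Mir132 was number 13 of all miRNA genes in replicate 1 and number 51 in replicate 2. Mir212 was number 132 and number 209. By mean CPM Mir132 was number 20, between Mir382 (11782 ± 6170 CPM, SD, n = 2) and Mir433 (9799 ± 2445), both of the imprinted chromosome 12 cluster. The next gene on either side was Mir652 above (13329 ± 6033) and the neuronal Mir137 below (9705 ± 6200), and none of these 4 differed from Mir132 by more than the SD of Mir132. Mir212 was number 161, between Mir488 (352 ± 119 CPM) and Mir1981 (336 ± 52.3), with Mir412 (356 ± 82.6) and Mir1306 (333 ± 4.52) next to them. Its place among these was set by averaging a high and a low library, since its own values lay above all 4 in replicate 1 and below all 4 in replicate 2.

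The ratio of Mir132 to Mir212 differed 1.10-fold between the libraries, while each gene itself differed about 4-fold. There were 31.8 Mir132 counts per Mir212 count in replicate 1 (95% interval 30.6 to 33.0) and 28.8 in replicate 2 (26.6 to 31.3), a mean of 30.3. Mir212 supplied 3.05% of the pair's counts in replicate 1 and 3.35% in replicate 2. This ratio does not depend on the library total. The ratio in replicate 1 was 1.10 times that in replicate 2 (exact 95% interval 1.01 to 1.21, p = 0.0323, two-sided Fisher's exact test of the pair's counts). The test compares these libraries beyond counting error and takes no account of differences between library preparations. Counts are per gene and not per arm, so the ratio of the 3p arms themselves is not known.

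Mir132 was 4.25-fold lower in replicate 2 (95% interval 4.18 to 4.31), and Mir212 was 3.85-fold lower (3.52 to 4.21). Summed, the pair was at 17681 CPM in replicate 1 and 4178 CPM in replicate 2, 4.23-fold lower (4.16 to 4.30). Like those of the shares, these intervals cover counting error only, and they take the library totals as given. In bulk tissue, fewer cells that hold the pair and less of it per cell cannot be told apart.

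These differences were large but not rare among the 218 genes that averaged 100 CPM or more. A fold of at least 4 toward lower values in replicate 2 was reached by 16 of them (7.34%), Mir132 included and Mir212 not. A fold of at least 3, a bound chosen after the values were seen, was reached by 26 (11.9%), with both genes included. On the scale of log2(CPM + 1), the ratio of replicate 2 over replicate 1 was -2.09 for Mir132 and -1.94 for Mir212. Counted from the lowest ratio, Mir132 was number 15 and Mir212 number 18 of the 218, whose median was 0.24 with an SD of 1.81. With 1 library on each side, no p-value for a single gene's difference was computed.

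The scaling of the libraries moves these folds. With edgeR TMM factors Mir132 was 5.16-fold and Mir212 4.68-fold lower in replicate 2, and with DESeq2 size factors 5.22-fold and 4.73-fold, because the median log2 ratio over detected genes, the 433 with at least 2 CPM in each library, shifts by -0.27 and -0.29. Apart from the added 1 CPM, a scaling shifts all log2 ratios alike, so the ratio relative to that median stays the same by construction. It was -2.35 for Mir132 and -2.20 for Mir212 with library totals, and -2.36 and -2.21 with TMM.

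**Figure D2:**
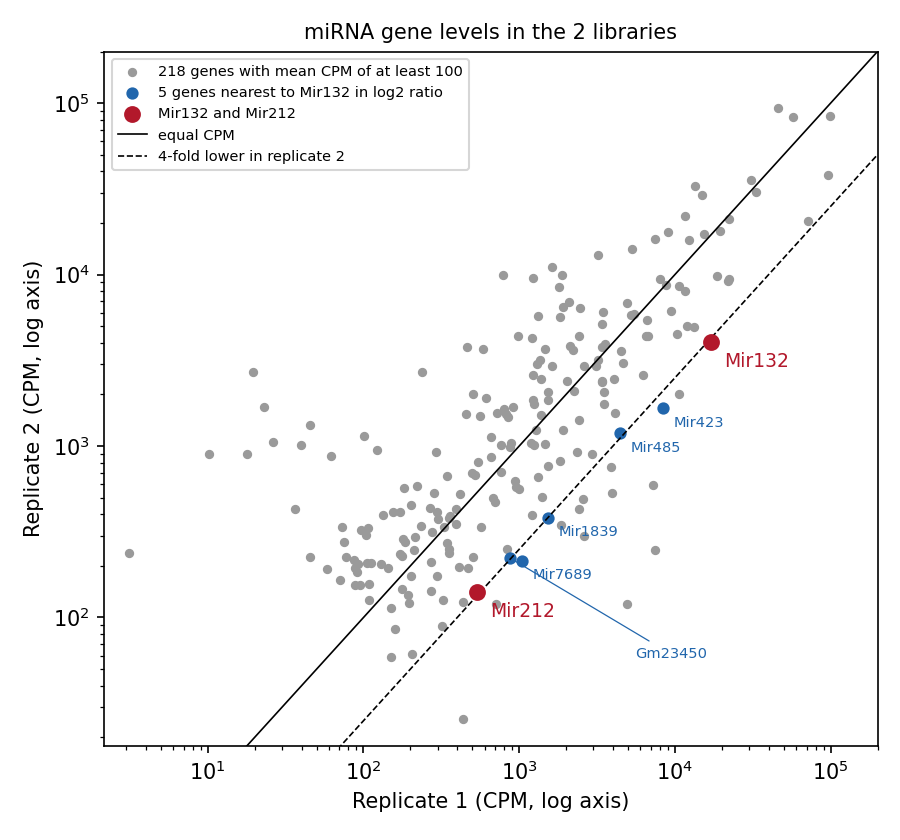
CPM in replicate 1 (horizontal, log axis) against CPM in replicate 2 (vertical, log axis) for the 218 genes that averaged 100 CPM or more; the solid line marks equal CPM and the dashed line values 4-fold lower in replicate 2. Mir132 (17142 and 4038 CPM) and Mir212 (539 and 140.1 CPM), in red, lie next to the dashed line, with the 5 genes of nearest log2 ratio in blue.

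The 5 other genes with the log2 ratio nearest to that of Mir132 were Mir1839, Gm23450, Mir485, Mir7689 and Mir423. Likeness here is the distance between log2 ratios, a single value per gene from 2 libraries. Mir1839 went from 1542 CPM in replicate 1 to 382 CPM in replicate 2 and Gm23450 from 879 to 221 CPM, at distances of 0.07 and 0.10 on the log2 scale. Mir485, which is known to act at synapses by repressing Sv2a, went from 4422 to 1188 CPM (distance 0.19). Mir7689 was 4.87-fold and Mir423 5.04-fold lower in replicate 2. Mir423 is also on chromosome 11, on the other strand (chr11:77078064-77078172), and the other 4 are on other chromosomes. Mir212, left out of this ranking by its rule, was at a distance of 0.15.

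Neighbouring miRNA genes often differed from each other between the libraries, and Mir212 and Mir132 were among the closest pairs. There were 53 pairs of next neighbours on the same strand within 10 kb with mean CPM of at least 100 in both genes. The distance between the log2 ratios of the neighbours had a median of 0.75 and a range of 0.00058 to 4.61. For Mir212 and Mir132 it was 0.15, number 6 from the smallest of 53, and number 5 of the 43 pairs without a copy of either gene elsewhere. Both genes lay on the same side of 0 in 35 of the 53 pairs (66.0%). Pairs of 1 cluster share genes and are not independent.

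No pair had both genes at least 4-fold lower in replicate 2 (0 of 53, 0%). At least 3-fold in both was reached by 2 of 53 pairs (3.77%), Mir212 with Mir132 and Mir668 with Mir485 of the chromosome 12 cluster. In the second pair the genes stood further apart, since Mir668 was 7.36-fold and Mir485 3.72-fold lower. With TMM or DESeq2 factors the same 2 pairs passed 4-fold in both genes. Mir23b and Mir27b were closer to each other than the Mir132 pair (distance 0.10), at smaller folds of 2.39 and 2.23. Mir497 and Mir195a, also neighbours on chromosome 11, were 4.04 apart.

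**Figure D3:**
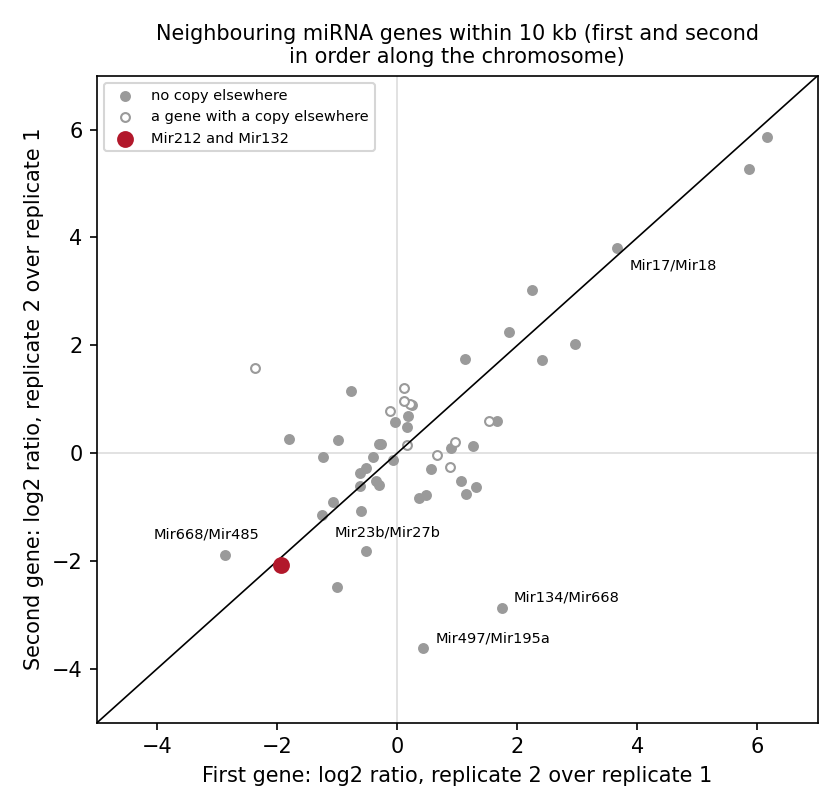
Log2 ratio of replicate 2 over replicate 1 in the first (horizontal) and the second (vertical) gene of 53 neighbouring miRNA gene pairs, in order of their coordinates; the diagonal marks equal ratios, and open circles are pairs in which a gene has a copy elsewhere. Mir212 and Mir132 (red, -1.94 and -2.09) lie near the diagonal on the low side, while Mir134/Mir668 and Mir497/Mir195a lie far from it.

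Other miRNA genes linked to neuronal activity or synapses did not share 1 direction, and neither did detected genes as a whole. The list held 28 genes besides the pair, of which 24 were detected. At least 1.5-fold lower in replicate 2 were 7 of the 24, beside 23.6% of all detected genes, and at least 1.5-fold higher were 11, beside 39.5%. Their median log2 ratio was 0.44, and that of all detected genes 0.27. The lower count depends on the scaling, with 9 lower and 11 higher with TMM and 10 lower and 11 higher with DESeq2 factors. By sign, 11 were lower and 13 higher with library totals and with each of the 4 other scalings. The shares of all detected genes are for library totals and 1.5-fold only. They were not computed for the other scalings or by sign, so those counts have no background beside them. The list and its members were drawn up with results of these data known, so these counts are a description.

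Of the 13 list genes without a copy elsewhere, 12 were detected. At least 1.5-fold lower were 3 of the 12, beside 23.6% of all detected genes, and higher were 5, beside 39.5%. The other 4 were within 1.5-fold. The lower genes were Mir485, Mir34a and Mir379. Mir34a, known as a p53 target that also acts in synaptic development, went from 435 CPM in replicate 1 to 123 CPM in replicate 2. Mir379, the first gene of the cluster that the activity-dependent factor MEF2 is known to induce, went from 4650 to 3038 CPM. Mir134 of the same cluster, known to limit spine size by repressing Limk1, went the other way, from 459 to 1532 CPM. Mir137, which is known to regulate presynaptic genes, was at 5321 and 14089 CPM, and Mir188 at 292 and 926 CPM.

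The remaining higher genes without a copy were Mir183 (17.9 and 898 CPM) and Mir182 (10.2 and 895 CPM), of a cluster known for regulation by light in the retina. Mir191, Mir381, Mir329 and Mir184 were within 1.5-fold. Mir138-1, whose product represses the depalmitoylating enzyme Lypla1 at spines, was 2.39-fold lower and its copy Mir138-2 3.27-fold lower, on counts that leave out reads matching both loci. Mir219a-2, which also has a copy, went from 4960 to 119 CPM, again on counts that leave out reads matching several places. The weakly expressed Mir26a-1 was 1.51-fold lower. The 6 other higher genes all have copies too: Mir219a-1 was 4.42-fold higher in replicate 2, Mir125b-1 4.32-fold, Mir128-2 2.59-fold, Mir9-3 2.35-fold, Mir9-1 2.23-fold and Mir128-1 1.88-fold.

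**Figure D4:**
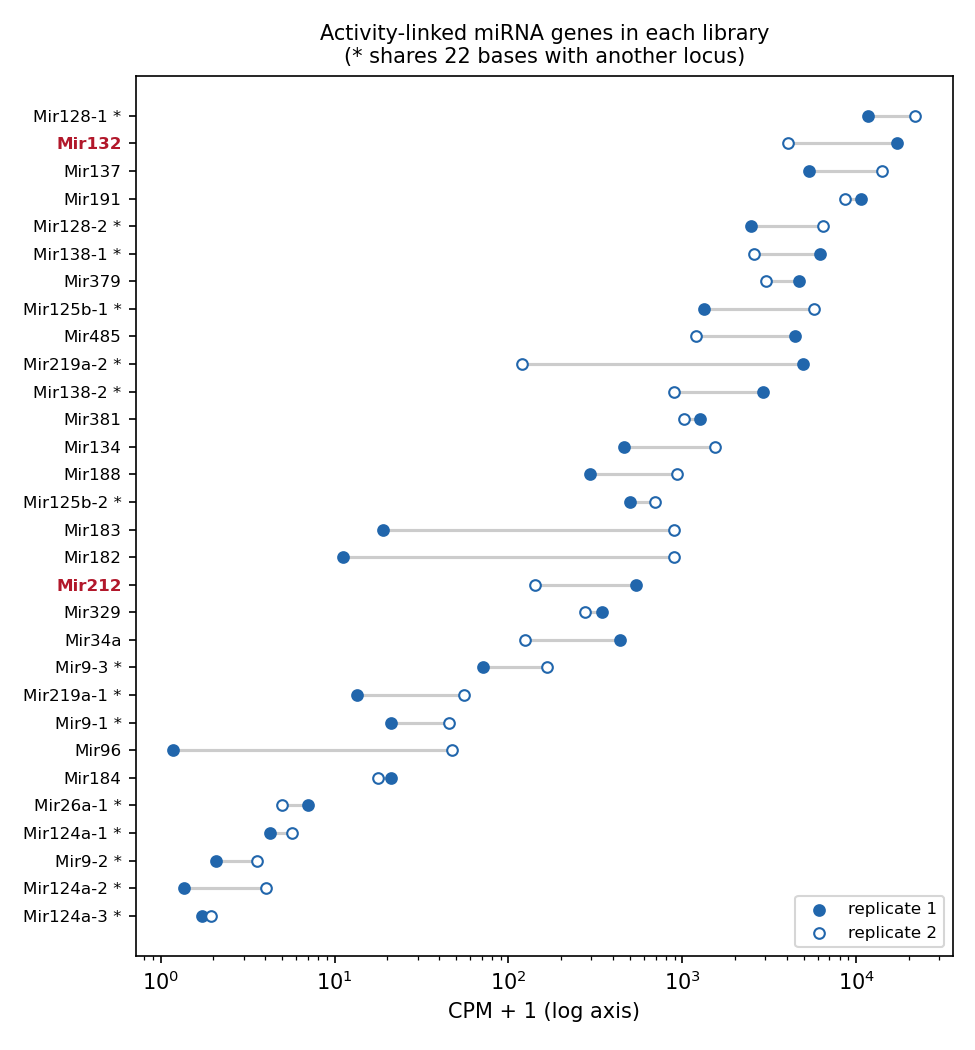
CPM + 1 (log axis) of the 30 genes of the activity-linked list in replicate 1 (filled) and replicate 2 (open), ordered by mean CPM, with an asterisk where the gene shares 22 bases with another locus. Mir132 (17142 and 4038 CPM) and Mir212 (539 and 140.1 CPM) have the open circle to the left, as do Mir485, Mir34a and both Mir138 genes, while Mir137 and Mir134 have it to the right.

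Marker lists of several cell types differed between the libraries as well. They overlap with the activity-linked list, which holds most neuron markers, Mir219a-1, Mir219a-2 and all of the sensory cluster. For these genes the marker lists are no separate observation. The 15 neuron markers summed to 44407 CPM in replicate 1 and 79661 CPM in replicate 2. With library totals this sum was 1.79-fold higher in the library with less Mir132. Mir149, Mir128-1 (11606 and 21819 CPM) and Mir137 made up most of it in both libraries. The Mir124a and Mir9 genes, which all have copies, added little. Of the 12 markers detected, 7 were at least 1.5-fold higher in replicate 2, beside 39.5% of all detected genes, and 4 were lower, beside 23.6%. The lower ones were Mir138-1, Mir138-2, Mir129-1 and Mir129-2. All 4 have copies, as do 12 of the 15. The 3 neuron markers without a copy were all higher in replicate 2, Mir149 at 13509 and 32894 CPM, Mir137 at the levels above, and Mir153 at 96.3 and 322 CPM.

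The 3 oligodendrocyte markers, all detected, summed to 6503 CPM in replicate 1 and 939 CPM in replicate 2. Mir219a-2 made up most of the sum in replicate 1 (4960 CPM), but Mir338 did so in replicate 2, where Mir219a-2 was at 119 CPM. Mir338 was 2.00-fold lower in replicate 2, at 1530 and 765 CPM, and Mir219a-1 was higher, at 12.4 and 54.8 CPM. Of these only Mir338 has no copy. The 3 endothelial and mural markers, all detected, summed to 21958 and 12895 CPM, with the endothelial Mir126a 1.90-fold lower in replicate 2 and Mir143 and Mir145a within 1.5-fold.

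The markers of blood-derived cells were split. The 5 microglia and blood markers, all detected, summed to 1986 and 1099 CPM. However, 3 of them, Mir142, Mir155 and Mir223, were at least 1.5-fold higher in replicate 2, beside 39.5% of all detected genes. The lower sum came mainly from Mir150 (1215 and 397 CPM), and Mir146 was within 1.5-fold. The 3 erythroid markers, all detected, summed to 88.1 and 65.9 CPM, with Mir451a and Mir144 lower in replicate 2 and Mir486 higher.

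The 6 epithelial markers, of which 5 were detected, summed to 74.8 and 5837 CPM, and the 3 markers of the sensory cluster, of which 2 were detected, to 28.3 and 1839 CPM. All 7 detected genes of these lists were at least 1.5-fold higher in replicate 2, beside 39.5% of all detected genes. They are not independent, since Mir429, Mir200a and Mir200b are neighbours, and Mir183 and Mir182 are of 1 cluster. The 4 choroid plexus markers, all detected, summed to 981 and 2302 CPM, a difference carried mostly by Mir449a (101 and 1139 CPM), while Mir204, Mir34c and Mir34b were within 1.5-fold. The 2 pituitary and endocrine markers, both detected, summed to 398 and 573 CPM, with Mir7-2, which has a copy, higher in replicate 2 and Mir375 lower, at 197 and 122 CPM. The part of these cell types in the difference of Mir132 and Mir212 was not tested.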

How the data were processed

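The authors deposited a table of raw read counts for each library, with miRNA genes as rows, counted on mm10 over GENCODE M21 per the deposited text beside each table. For the aligner, trimming and counting options, nothing is given in the sources used here. Column 3 was used. It holds nearly all reads at miRNA genes and was read as the main strand. No source names the columns. The 4 rows that name no gene stayed out of totals, among them reads that match several places (41.9% and 46.4% of the libraries), unmapped reads (17.1% and 17.2%) and reads outside miRNA genes (5.56% and 5.17%).

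All 2202 gene identifiers matched GENCODE M21. CPM, folds with exact binomial 95% intervals, and log2 ratios with 1 CPM added were computed with scipy 1.17.1. Scaling alternatives used edgeR 4.0.16 and DESeq2 1.42.0 on 579 genes with at least 10 counts in sum. Shared stretches of 22 bases were searched on both strands of GENCODE transcripts. Both genes matched the RefSeq sequence table. The interval and pair tests were tested on simulated data.

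Named were the pair, 2 genes on each side of them by mean CPM, 5 genes nearest to Mir132 in log2 ratio among those with mean CPM of at least 100, and members of the fixed lists. Neighbouring pairs named beside these were chosen after their values were seen. The members and lists were chosen with earlier results of these data known.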

Additional observations from a re-analysis of the deposited data

How the results depend on the processing

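Mir132 and Mir212 were lower in replicate 2 under every alternative scaling, count column and added CPM tried. The log2 ratio of Mir132 was -2.11 from counts without strand, -2.13 without the 10 most abundant genes in the total, -2.27 on all reads of the table, -2.37 with TMM and -2.38 with DESeq2 factors. For Mir212 it was -2.10 on all reads of the table, -2.22 with TMM and -2.23 with DESeq2 factors. Without the 10 most abundant genes in the total, the mean levels were 20435 and 655 CPM, and per 1000000 of all reads they were 3666 and 117. From single libraries the level ranged from 4038 to 17142 CPM for Mir132 and from 140.1 to 539 CPM for Mir212, and their ratio from 28.8 to 31.8. Genes at least 4-fold lower in replicate 2 numbered 25 of 218 with DESeq2 factors and 48 of 579 without a filter on CPM, and neighbouring pairs 2 with TMM and 2 with DESeq2 factors. With library totals, 0 of 53 neighbouring pairs were at this fold. Limiting them to genes without copies elsewhere, an alternative added after seeing the data, gave 0 of 43. The 2 pairs that passed with TMM or DESeq2 factors hold no gene with a copy elsewhere. At 598 counts, Mir212 in replicate 2 sets the precision of the pair's ratio. No paired analysis was possible because there is 1 group.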
